A study of Mus musculus with 31 samples.

Results

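The genes followed here, 10 in number, were measured in single 2-cell mouse embryos: Btg4, the CCR4-NOT subunit genes Cnot1, Cnot2, Cnot3, Cnot6, Cnot6l, Cnot7 and Cnot8, and Zfp36l2 and Pan2. They were chosen by name, for their place in the removal of maternal mRNA, and make up 10 of the 20544 gene symbols in the count table. All embryos were wild type (WT), from CD1 oocytes of superovulated females aged 8 to 10 weeks fertilized in vitro with sperm of C57BL/6J males aged 12 to 14 weeks. Sperm of the 15 SER-generated embryos had been kept without energy substrates until motility was lost and then given glucose and pyruvate (sperm energy restriction and recovery). Sperm of the 16 control-generated embryos stayed in medium with these nutrients. Each library is 1 embryo collected at 32 h post-insemination (HPI), and the labels do not say which embryos shared parents or a fertilization, so p-values measure the spread between embryos only.

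Before the embryonic genome takes over, the mouse embryo lives on mRNA that the oocyte stored, and most of that mRNA is then destroyed. The CCR4-NOT complex starts the destruction by shortening the poly(A) tail. BTG4 is an adaptor made in the maturing oocyte that brings the complex to maternal transcripts, and it is itself encoded by a maternal mRNA. CNOT1 is the scaffold on which the other subunits sit, CNOT2 and CNOT3 form the NOT module, and the tail is cut by a pair of nucleases, CNOT6 or CNOT6L together with CNOT7 or CNOT8. ZFP36L2 binds AU-rich elements in the 3′ UTR and recruits the complex, and PAN2 is the nuclease of the PAN2-PAN3 complex, which trims long tails.

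The counts on genes were 532945 to 2085222 per control-generated embryo (median 955806.5) and 642321 to 3088396 per SER-generated embryo (median 1375557). Levels are given as CPM, the counts of a gene scaled to a common library total, and levels of different genes are compared only as CPM per kb of exon. The study worked in batches that held both treatments, but the labels give no batch for any embryo, so within-batch values could not be computed and the part of batch was not tested. Maternal oocyte transcripts summed to 8910 to 36100 CPM among control- and 9170 to 18500 CPM among SER-generated embryos, and zygotic 2-cell genes to 652 to 4130 and 851 to 3400 CPM. Both lists that define the labelled stage thus had counts in every library. Control replicate 4 and SER replicate 15 stood apart: their zygotic lists averaged 1.61 and 2.08 in log2(CPM + 1), against group means of 4.65 and 4.71, and their maternal lists 7.59 and 7.72, the highest of their groups, against means of 6.51 and 6.36. Results that rest on these embryos are given with and without them. Cumulus cell markers summed to 18.1 to 1840 CPM among control- and 21.0 to 308 CPM among SER-generated embryos, with a median of 141 CPM in both groups. Amhr2 alone had medians of 105 and 139 CPM. Cyp11a1 reached 1420 CPM in 1 control but had medians of 11.8 and 1.23 CPM. Sperm markers summed to 108 to 291 and 98.2 to 392 CPM, mostly Odf2, and macrophage markers to 0 to 77.8 and 0.777 to 265 CPM. The part of these other cell types in the values below was not tested. Because each library is a whole embryo, the levels of its 2 cells cannot be told apart.

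The libraries were primed on the poly(A) tail, and for maternal mRNA the tail is set by signals near the 3′ end. The last 100 bases of GENCODE vM21 transcripts (GRCm38) were searched on the mRNA strand for the polyadenylation hexamers AATAAA and ATTAAA and for the cytoplasmic polyadenylation elements TTTTAT and TTTTAAT, written with T for U. A hexamer was found for 9 of the 10 genes, all but Cnot1, against 81.2% of 19316 protein-coding genes. A hexamer and an element within 30 bases of each other were found for 4 of the 10 genes, Cnot3, Cnot7, Cnot8 and Pan2, against 10.1% of all genes. The windows of 30 bases shown are those of Btg4, the gene with the highest level, and of both pairs of alternative nucleases, with hexamer and element in capitals.
Btg4 (Btg4-203, chr9:51119530-51119559, plus strand): gaacagagatgttgccggtgataaAATAAA
Cnot6 (Cnot6-203, chr11:49671521-49671550, minus strand): gtattttcctactcatagccaaccAATAAA
Cnot6l (Cnot6l-210, chr5:96070352-96070381, minus strand): cccacttttcctttccctgtaggcAATAAA
Cnot7 (Cnot7-201, chr8:40492562-40492591, minus strand): ttatttgtttttaaagcttttgtaAATAAA
Cnot7 (Cnot7-211, chr8:40493041-40493070, minus strand): aagtcttaaggtacaTTTTATatcAATAAA
Cnot8 (Cnot8-202, chr11:58118547-58118576, plus strand): ttatttatgtTTTTAATtttgtaaAATAAA
Cnot7 has annotated ends of both kinds, 1 with and 1 without an element beside the hexamer. The Cnot8 window carries the longer element, whereas the windows of Btg4, Cnot6 and Cnot6l hold the hexamer alone. A match in these letters is a description of the annotated end and does not show which end the embryos used.

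Per length of exon, Btg4 stood far above the complex it recruits. Its median over the 31 embryos was 679 CPM per kb, followed by Cnot8 at 170 and Cnot7 at 80.4 CPM per kb. Cnot2 (27.5), Cnot6l (24.6), Cnot3 (16.9), Cnot6 (13.3), Pan2 (11.1) and Zfp36l2 (9.27 CPM per kb) came next. The scaffold gene Cnot1 came last, at 7.81 CPM per kb. Of the 9 pairs of neighbours in this order, 6 differed within embryos (2-sided sign-flip permutation test with 100000 resamples, adjusted p under 0.05 over the 9 pairs). The 3 pairs that did not pass were Cnot3 with Cnot6 (adjusted p = 0.58 in that permutation test), Cnot6 with Pan2 (0.0640) and Zfp36l2 with Cnot1 (0.348). In the last pair the mean log2 ratio within embryos was −0.37, against the order of the medians. Btg4 was above Cnot8 in 29 of 31 embryos, by 1.87 ± 1.21 (SD) on the log2 scale. With the length of the longest transcript in place of all exons, the first 6 genes kept their places and Cnot1 moved from the last place to the eighth. The authors merged reads from the 5′ end with internal reads, and how far the 5′ end reads alter a level per length was not tested.

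**Figure D1:**
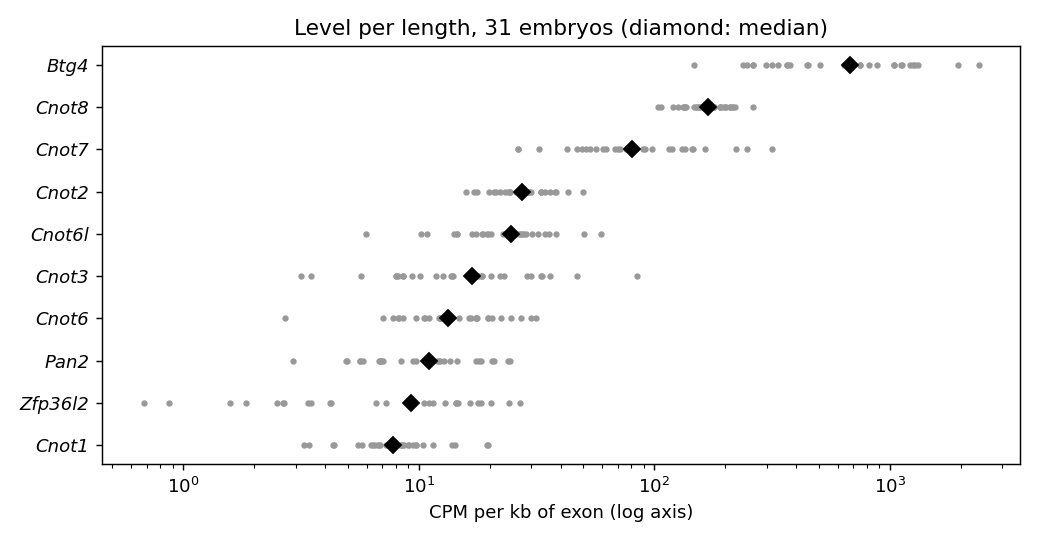
Level of each gene per length in 31 embryos, as CPM per kb of exon on a log axis (grey points: embryos with at least 1 count; black diamonds: medians over all embryos). Btg4 has a median of 679 CPM per kb, Cnot8 169.5 and Cnot1 7.81.

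In SER- against control-generated embryos, none of the 10 genes passed the test (edgeR quasi-likelihood test, adjusted p under 0.1). That test called 0 of 8571 genes, 0.00%, with a smallest adjusted p of 0.178. At an unadjusted p under 0.05 it gave 1 of the 10 genes, Cnot1, against 5.73% of all tested genes, 491 in number. DESeq2 called 49 genes (0.572%) and edgeR with 5 surrogate variables 61 (0.712%), in both cases none of the 10. limma voom with sample quality weights called 848 genes (9.89%), among them 2 of the 10, Btg4 and Cnot1. The fitted change was upward for 6 and downward for 4 of the 10 genes, with a median log2 fold change of 0.03, beside 0.02 over all tested genes. Of all tested genes, 4515 had an upward and 4056 a downward fitted change.

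**Figure D2:**
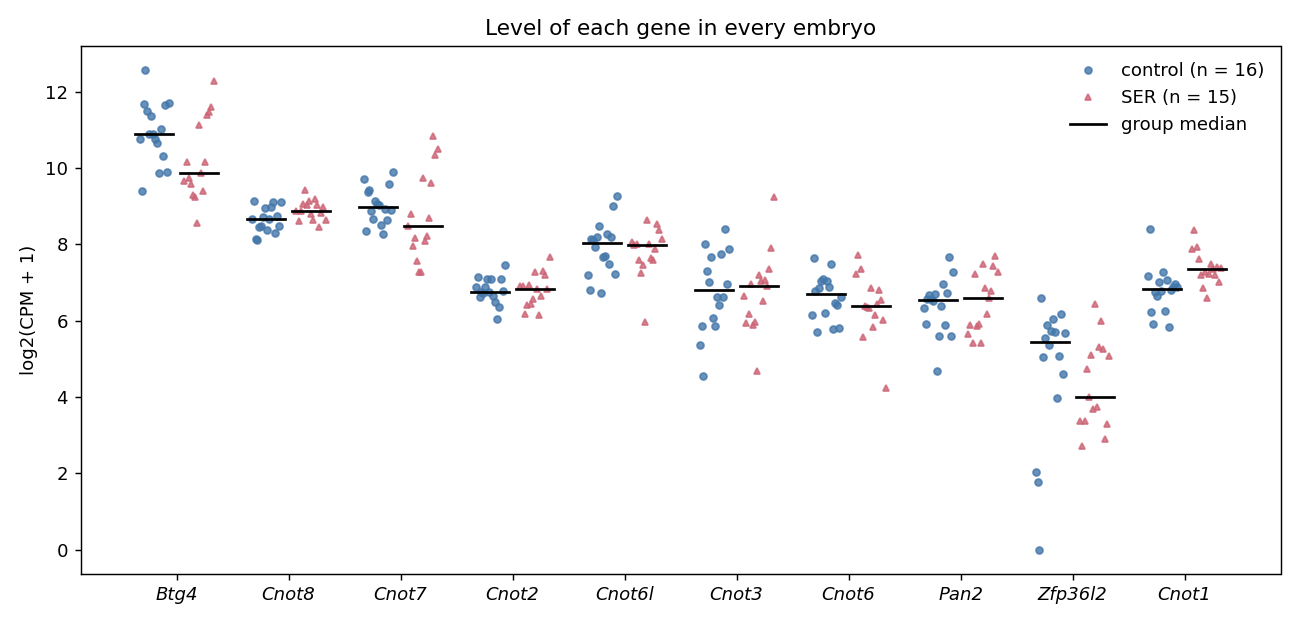
Level of each gene in every embryo as log2(CPM + 1), for 16 control- (circles) and 15 SER-generated embryos (triangles), with black lines at group medians. The groups overlap for all 10 genes, and the medians lie farthest apart for Zfp36l2 and Btg4.

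Btg4 (chr9:51060901-51119875, plus strand), the adaptor, ran from 673 through a median of 1907 to 6100 CPM in control-generated embryos. In SER-generated embryos it ran from 375 through 940 to 4964 CPM. The SER-generated embryos fell into a lower part of 10, all at or below 1150 CPM, and an upper part of 5, all at or above 2250 CPM. The 5 were the only SER-generated embryos above the control median, and 14 of 16 control-generated embryos were above the SER median. Of the SER-generated embryos, 4 were below the lowest control, with the other 11 within the control range. The 5 were SER replicates 8, 12, 13, 14 and 15. Replicates 12 to 15 had 2158512 to 2567720 total counts, more than any other SER-generated embryo except replicate 10. Replicate 10, with 3088396 counts, was in the lower part, and replicate 8 had the fewest of the group, 642321. Whether the split follows library size was not tested. Btg4 had a Pearson r of 0.0261 with log2 total counts over all embryos, with group means removed. This value pools opposite directions, upward with library size within the SER group and downward within the control group. It therefore does not show that Btg4 is unrelated to library size. The fitted level was 1.49-fold higher in control-generated embryos (log2 fold change −0.58, SE 0.34, edgeR adjusted p = 0.892). The estimate was negative in all 41 alternatives. Most of these leave out 1 embryo each and share all other libraries with the main fit, so their signs are not independent of it.

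The size of the Btg4 difference varied with the fit and with single embryos. limma voom, which gives each library a quality weight, put it at −0.98 (SE 0.23, adjusted p = 0.0171). Its weights for SER replicates 12, 13, 14 and 15, which hold the 4 highest Btg4 levels of the SER group, were 0.485, 0.185, 0.515 and 0.0863. The other 11 SER-generated embryos had weights of 0.923 to 2.40. Control replicates 1 to 4 had weights of 0.236 to 0.511, and the highest control level of Btg4 was in replicate 4. In edgeR, the estimate was −0.85 without SER replicate 15 and −0.37 without control replicate 4, and no omission of 1 embryo brought the adjusted p below 0.381. These 2 embryos, which stood apart in the maternal and zygotic lists, also held the highest Btg4 of their groups, and without both the estimate was −0.63 (SE 0.30, adjusted p = 0.609). With 5 surrogate variables as covariates it was −0.53 (SE 0.16, adjusted p = 0.134).

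Cnot1 (chr8:95719451-95807464, minus strand), the scaffold, ran from 56.1 through 114 to 339 CPM in control-generated embryos. In SER-generated embryos it ran from 94.97 through 163 to 334 CPM. Of 15 SER-generated embryos, 14 were above the control median, and 15 of 16 control-generated embryos were at or below the SER median. Taken alone, log2(CPM + 1) was higher by 0.58 in SER-generated embryos (2-sided permutation test with 100000 resamples, unadjusted p = 0.00426, adjusted p = 0.5 over all tested genes). In the same permutation test, which was added after seeing the data, Cnot8 was higher by 0.25 (unadjusted p = 0.0270), Btg4 was at −0.70 (p = 0.05004, just above the threshold), and the unadjusted p of the other 7 genes was 0.377 to 0.986. Thus 2 of the 10 genes had an unadjusted p under 0.05, against 6.39% of all tested genes. In the edgeR fit the fold of Cnot1 was 1.40 (log2 fold change 0.48, SE 0.22), which did not pass (edgeR unadjusted p = 0.0335, adjusted p = 0.809 over all tested genes). limma voom gave 0.68 (SE 0.18, adjusted p = 0.0299). The estimate was positive in all 41 alternatives. It was lowest, at 0.17 (SE 0.29), with the replicate block and library size together, and ran from 0.39 without SER replicate 2 to 0.68 without control replicate 2 where 1 embryo was left out. Library size moved with it: Cnot1 had a Pearson r of 0.408 with log2 total counts over 31 embryos, with group means removed. With library size as a covariate the edgeR estimate was 0.27 (SE 0.22, adjusted p = 0.956).

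**Figure D3:**
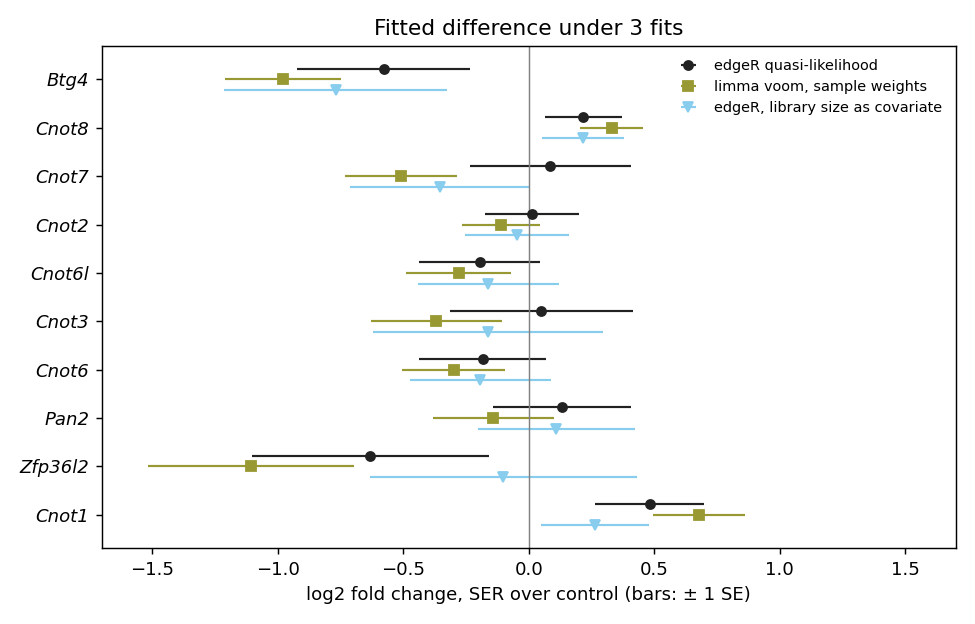
Fitted log2 fold change of SER- over control-generated embryos with bars of 1 SE, under edgeR's quasi-likelihood test (circles), limma voom with sample quality weights (squares) and edgeR with library size as a covariate (triangles). Btg4 lies below 0 and Cnot1 and Cnot8 above 0 in all 3 fits, and Cnot7 changes sign, from 0.09 in edgeR to −0.51 in limma voom.

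No difference between treatments was detected in the NOT module genes. Cnot2 (chr10:116485161-116581511, minus strand) ran from 64.9 through 108 to 176 CPM among control- and from 69.6 through 113 to 203 CPM among SER-generated embryos. Its fitted log2 fold change was 0.01 (SE 0.19, edgeR adjusted p = 0.997). Cnot3 (chr7:3645268-3661109, plus strand) ran from 22.4 through 111 to 335 CPM among control- and from 24.8 through 120 to 604 CPM among SER-generated embryos, a 24.4-fold range within the SER group. The fit put its log2 difference at 0.05 (SE 0.36, edgeR adjusted p = 0.993), and without SER replicate 15, the embryo at 604 CPM, it was −0.38. Without that embryo and control replicate 4 together it was −0.25. Cnot3 shares 433 of its 7129 exon bases with Leng1 on the opposite strand, and the strand setting of the counting is not given in the sources used here.

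Of the first pair of alternative nucleases, Cnot6l was the more abundant per length. Cnot6l (chr5:96070333-96164171, minus strand) ran from 106 through 260 to 613 CPM among control- and from 61.5 through 254 to 395 CPM among SER-generated embryos. Cnot6 (chr11:49671503-49712723, minus strand) ran from 51.3 through 103 to 198 CPM and from 17.9 through 82.5 to 209 CPM. Neither passed the test: the log2 fold change was −0.19 (SE 0.24, edgeR adjusted p = 0.967) for Cnot6l and −0.18 (SE 0.25, adjusted p = 0.968) for Cnot6. Within an embryo, Cnot6l exceeded Cnot6 per kb in 26 of 31 embryos, with a geometric mean ratio of 1.64. The log2 ratio was 0.64 ± 0.87 (SD) in control- and 0.78 ± 1.03 (SD) in SER-generated embryos, a difference of 0.14 (SE 0.34) that was within the spread between embryos (2-sided permutation test with 100000 resamples, p = 0.686).

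In the second pair the balance per kb of exon lay the other way. Cnot7 (chr8:40492540-40515847, minus strand) ran from 311 through 502 to 951 CPM in control-generated embryos and from 154 through 354 to 1844 CPM in SER-generated embryos. Again 10 SER-generated embryos were at or below 442 CPM and 5 at or above 782 CPM. All 5 were the embryos with high Btg4, most of them among the deepest SER libraries. Cnot7 had a Pearson r of 0.334 with log2 total counts, with group means removed. Its log2 fold change was 0.09 (SE 0.32, edgeR adjusted p = 0.986), and the sign was negative in 9 of 41 alternatives, limma voom among them at −0.51 (SE 0.22, adjusted p = 0.164). Cnot7 shares 247 of its 5821 exon bases with Zdhhc2 on the opposite strand.

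Cnot8 (chr11:58104153-58118594, plus strand) ran from 275 through 408 to 562 CPM among control- and from 351 through 473 to 691 CPM among SER-generated embryos. From lowest to highest this was a 2.05-fold range in the control and a 1.97-fold range in the SER group. The log2 fold change was 0.22 (SE 0.15, edgeR adjusted p = 0.935), positive in all 41 alternatives, and limma voom gave 0.33 (SE 0.13, adjusted p = 0.114). Cnot7 exceeded Cnot8 per kb in 6 of 31 embryos, 2 control- and 4 SER-generated, with a geometric mean ratio of 0.494. The size of this ratio depends on the lengths taken, here 5821 exon bases for Cnot7 and 2636 for Cnot8. Per kb of the longest transcript, 3888 and 2099 bases, the medians were 120 and 213 CPM. With the shorter Cnot7-201, of 2615 bases, the ratio was not computed. The log2 ratio was −0.77 ± 0.62 (SD) in control- and −1.28 ± 1.32 (SD) in SER-generated embryos, a difference of −0.51 (SE 0.38, 2-sided permutation test with 100000 resamples, p = 0.176). It was below the control median in 10 of 15 SER-generated embryos.

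**Figure D4:**
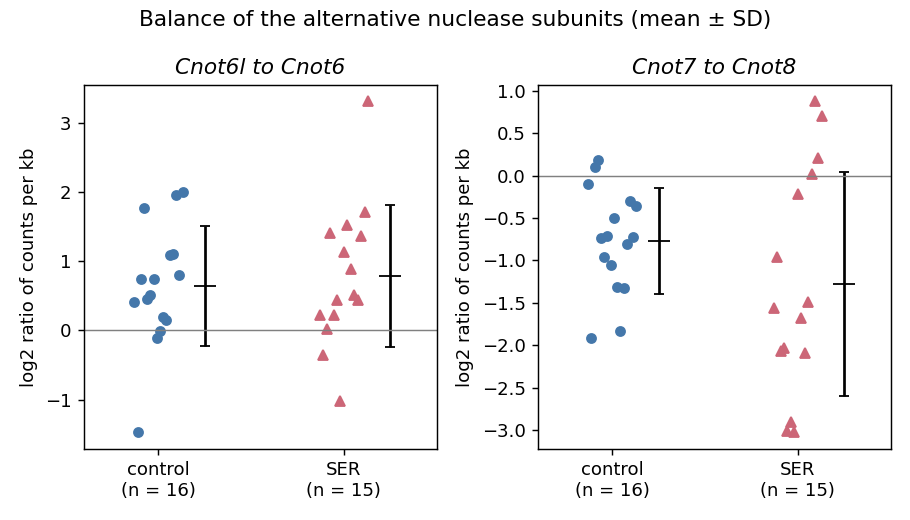
Log2 ratio of Cnot6l to Cnot6 (left) and of Cnot7 to Cnot8 (right) in counts per kb of exon, with 1 point per embryo and the mean ± SD of each group. Cnot6l exceeded Cnot6 in 26 of 31 embryos, and Cnot7 exceeded Cnot8 in 6 of 31.

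Zfp36l2 (chr17:84183931-84187947, minus strand), the adaptor for AU-rich elements, was the most sparsely counted of the genes. It ran from 0 through 42.9 to 95.1 CPM in control-generated embryos. In the embryo without a count, control replicate 3, a count of 0 allows up to 2.93 CPM. In SER-generated embryos it ran from 5.58 through 14.9 to 85.6 CPM, and 13 of 15 were below the control median. The fitted level was 1.55-fold higher in control-generated embryos (log2 fold change −0.63, SE 0.47, edgeR adjusted p = 0.935), and limma voom gave −1.11 (SE 0.41, adjusted p = 0.102). Zfp36l2 had a Pearson r of −0.41 with log2 total counts, with group means removed. With library size as a covariate the edgeR estimate was −0.10 (SE 0.53, adjusted p = 0.990). Pan2 (chr10:128303335-128321358, plus strand) ran from 24.8 through 92.2 to 203 CPM among control- and from 41.4 through 96.2 to 206 CPM among SER-generated embryos, and the fitted log2 difference was 0.13 (SE 0.28, adjusted p = 0.978).

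The genes differed widely in how far single embryos of 1 group lay from each other. Cnot8 had a within-group SD of 0.30 in log2(CPM + 1), and only 6 of the 8571 tested genes had a smaller one. Cnot2 followed at 0.39, with 54 genes below it, and Cnot1 at 0.54. The SD was 0.68 for Cnot6l, 0.71 for Cnot6, 0.76 for Pan2, 0.88 for Cnot7, 0.95 for Btg4, 1.05 for Cnot3 and 1.56 for Zfp36l2, against a median of 1.10 over all tested genes. These SDs include counting error, which is larger for sparsely counted genes, and genes of like level were not compared. Cnot8 had 182 to 1787 counts per embryo and Zfp36l2 0 to 120. Cnot7 was the 1 gene of the 10 whose spread differed between the treatments before adjustment. Its mean absolute deviation from the group median was 0.928 among SER- and 0.379 among control-generated embryos (by a 2-sided permutation test with 100000 resamples, unadjusted p = 0.00794). With the same permutation test run on all 8571 genes, 3.68% had an unadjusted p under 0.05, and the adjusted p of Cnot7 was 1.0.

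Btg4 and Cnot7 rose and fell together from embryo to embryo. With group means removed, Pearson's r between them was 0.865 and Spearman's rho 0.875 over 31 embryos (permutation within groups with 100000 resamples, p = 1e-05, the smallest these can give, adjusted p = 0.000145 for both over the 29 relations computed). The r was 0.716 within the control and 0.956 within the SER group, 0.841 without the 2 embryos farthest from the median of Cnot7, and 0.869 without control replicate 4 and SER replicate 15. Of the other tested genes, 0.222% had an r with Btg4 at least as high. Cnot8, which encodes the alternative to CNOT7, went the opposite way with Btg4, with r = −0.47 and rho = −0.42 (permutation p = 0.0063 and 0.0194, adjusted p = 0.0141 and 0.0401). An r as low or lower was found for 27.1% of tested genes. The relation had r = −0.37 without the 2 embryos farthest from the median of Cnot8, and on TMM-scaled library sizes it no longer passed (r = −0.33, adjusted p = 0.110 in the permutation test).

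Among the other genes, Cnot3 (r = 0.648, rho = 0.661), Cnot6l (0.626, 0.570), Pan2 (0.606, 0.565) and Cnot2 (0.521, 0.476) also rose with Btg4. Their permutation p-values were 0.00015, 0.00014, 0.00058 and 0.00419 for r and 0.00012, 0.00097, 0.00184 and 0.00908 for rho, and the adjusted p was 0.00109, 0.00109, 0.0028 and 0.011 for r and 0.000822, 0.00402, 0.00593 and 0.0239 for rho. Without the 2 embryos farthest from the median of each gene the r was 0.729, 0.603, 0.671 and 0.476, and without the 2 embryos that stood apart 0.528, 0.675, 0.603 and 0.460. An r at least as high was found for 6.32%, 7.22%, 8.04% and 12.5% of tested genes. For Cnot2 the r was 0.145 within the control and 0.763 within the SER group, a difference that was not tested. Cnot1 had r = −0.42 and rho = −0.41 with Btg4 (permutation p = 0.0164 and 0.0236, adjusted p = 0.0298 and 0.0428), which did not pass with counts thinned to the smallest library (r = −0.37, adjusted p = 0.0627) or with TMM-scaled sizes (r = −0.36, adjusted p = 0.0743). For Cnot1, 30.5% of tested genes had an r as low or lower. Cnot6 (r = −0.34, permutation adjusted p = 0.106) and Zfp36l2 (r = 0.17, adjusted p = 0.361) did not pass. In all, 7 of the 9 genes passed, at permutation p-values of up to 0.019 over the relations computed. Because 48.9% of all tested genes had a p with Btg4 at or under this value, a pass alone sets none of the 9 apart. All these values come from the same libraries and are shares of their totals, and how far embryos of 1 batch shared levels was not tested.

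**Figure D5:**
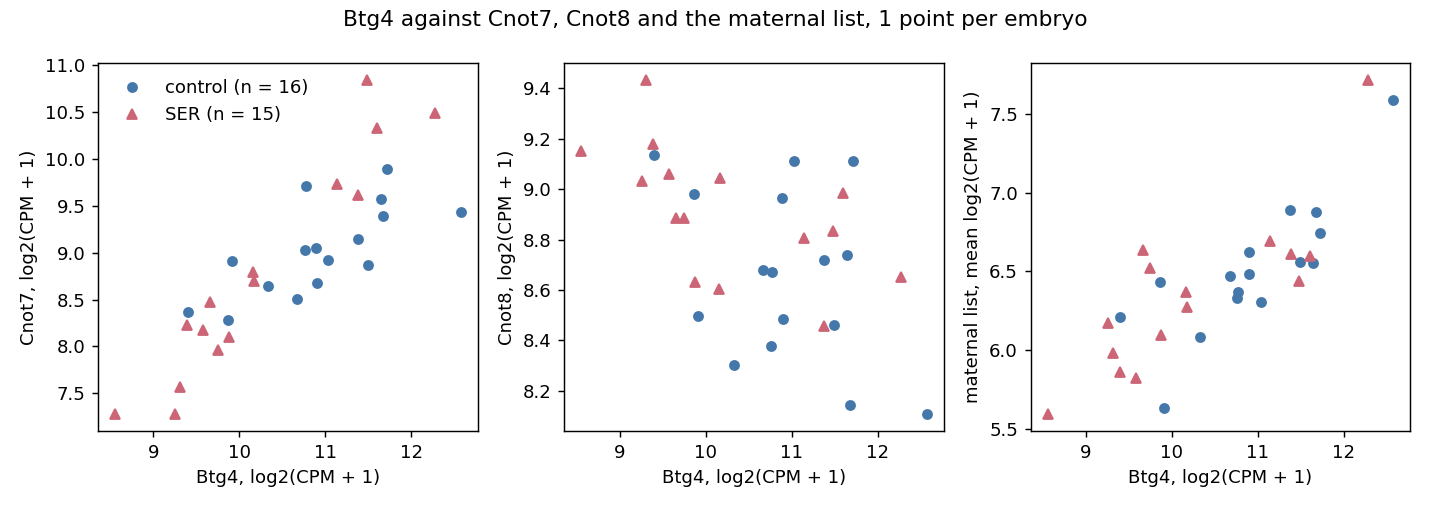
Btg4 against Cnot7 (left), Cnot8 (middle) and the mean of 30 maternal oocyte transcripts (right), all as log2(CPM + 1), with 1 point per embryo, circles for control- and triangles for SER-generated embryos. Embryos with more Btg4 had more Cnot7 (r = 0.865) and a higher maternal level (r = 0.818), and the relation with Cnot8 slopes downward (r = −0.47).

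The level of the maternal list, 30 oocyte transcripts such as Gdf9, Zp3 and Mos with none of the 10 genes among them, followed Btg4 closely. Pearson's r was 0.818 and rho 0.798 (permutation p = 1e-05 for both, adjusted p = 0.000145 for both), with 0.817 within the control group, 0.821 within the SER group and 0.743 without the 2 farthest embryos, which are control replicate 4 and SER replicate 15. Of the tested genes outside the list, 0.152% had an r with the maternal list at least as high as that of Btg4. Cnot7 (r = 0.600, rho = 0.650) and Cnot6l (r = 0.530, rho = 0.658) rose with the maternal list as well (permutation p = 0.00032 and 0.00395 for r, adjusted p = 0.00186 and 0.011). So did Cnot3 (r = 0.522, rho = 0.447) and Cnot2 (r = 0.493, rho = 0.478, permutation p = 0.00408 and 0.00686 for r, adjusted p = 0.011 and 0.0142), although Cnot3 had r = 0.277 and Cnot2 r = 0.422 without the 2 farthest embryos. Within the control group the r was 0.243 for Cnot3 and 0.187 for Cnot2, against 0.782 and 0.710 within the SER group. This difference was not tested. Cnot8 went the opposite way (r = −0.41, rho = −0.41, permutation adjusted p = 0.0325), which did not pass on TMM-scaled sizes (r = −0.19, adjusted p = 0.360). Without the 2 farthest embryos the r was −0.255 for Cnot8, 0.545 for Cnot7 and 0.656 for Cnot6l. Cnot6 did not pass (r = −0.179, rho = 0.253, permutation adjusted p = 0.363 for r), and its r was 0.473 without these embryos. In all, 6 of the 10 genes passed with the maternal list, against 44% of tested genes outside the list at or under the same p. The list itself averaged 6.51 ± 0.422 (SD, n = 16) in control- and 6.36 ± 0.505 (SD, n = 15) in SER-generated embryos on the log2(CPM + 1) scale (a 2-sided permutation test with 100000 resamples, p = 0.376). Its most abundant genes were Omt2a, with 6050 ± 3370 CPM among control- and 3900 ± 1450 CPM among SER-generated embryos (log2 fold change −0.71, SE 0.25, edgeR adjusted p = 0.607), Dppa3 (−0.13, SE 0.27, adjusted p = 0.978) and Bpgm (−0.58, SE 0.36, adjusted p = 0.912). Of its 27 tested genes 0 passed in edgeR and 3 had an unadjusted p under 0.05, against 5.73% of all tested genes. The fitted change was upward for 9 and downward for 18, with a median log2 fold change of −0.17. Over all tested genes it was upward for 4515 and downward for 4056, with a median of 0.02.

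With the zygotic list, 28 genes first transcribed by the embryo at this stage, the relations were fewer. Zfp36l2 (r = −0.53, rho = −0.65, r = −0.63 without the 2 farthest embryos, again control replicate 4 and SER replicate 15) and Cnot3 (r = −0.59, rho = −0.55, r = −0.41 without them) were lower where the zygotic list was higher. Their permutation p-values for r were 0.00486 and 0.00085, with adjusted p of 0.0117 and 0.00352, and for rho 0.00016 and 0.00178, with adjusted p of 0.000822 and 0.00593. Btg4 had r = −0.47 with the zygotic list (permutation p = 0.00738, adjusted p = 0.0143), but rho was −0.18 (p = 0.357, adjusted p = 0.415) and r was −0.07 without the 2 farthest embryos, so that relation rests on those embryos. The same held for Cnot6, with r = 0.553 (permutation p = 0.00236, adjusted p = 0.00855) but 0.179 without them and a rho of 0.340 (p = 0.0655). With the zygotic list 4 of the 10 genes passed, against 32.9% of tested genes outside the list at or under the same p. An r as low or lower than that of Cnot3 was found for 2.02% of them, and for Zfp36l2 3.99%. Over all 3 targets, 17 of the 29 relations had an adjusted p under 0.05. The zygotic list averaged 4.65 ± 0.916 (SD, n = 16) in control- and 4.71 ± 0.916 (SD, n = 15) in SER-generated embryos (permutation p = 0.844), and 0 of its 24 tested genes passed in edgeR, 13 with a fitted change upward and 11 downward. Its most abundant genes were Usp17lb, Zfp664 and Nr5a2, with mean levels of 345, 286 and 249 CPM among control- and 402, 275 and 249 CPM among SER-generated embryos.

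The 5 tested genes whose level was most like that of Btg4 over the 31 embryos, by Pearson's r with group means removed, were Dync1i2 (0.925), Umodl1 (0.919), Spin1 (0.913), Cenpn (0.908) and Ube2d3 (0.894). They were picked for this r, which therefore has no p. Spin1, a spindle and chromatin protein abundant in the egg, averaged 4780 CPM among control- and 4950 CPM among SER-generated embryos. Of the 5, Ube2d3, a ubiquitin-conjugating enzyme, had the fitted change closest to that of Btg4 (log2 fold change −0.42, SE 0.28, edgeR adjusted p = 0.928), and the other 4 lay between −0.20 and 0.07.

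The remaining decay machinery was described by lists. Of the 5 other CCR4-NOT subunits, all tested, 0 passed in edgeR, 2 with a fitted change upward and 3 downward. Cnot9, which binds adaptor proteins, had the highest level per length (63.9 ± 29.9 CPM among control- and 60.6 ± 23.4 CPM among SER-generated embryos), and Cnot11 the smallest p (log2 fold change −0.57, SE 0.36, adjusted p = 0.924). Of the 6 other deadenylases 0 passed, 4 upward and 2 downward. Among them were Angel2, with 647 ± 242 and 697 ± 372 CPM, and Pan3, the partner of PAN2, with 173 ± 87.9 and 204 ± 90.8 CPM (0.15, SE 0.26, adjusted p = 0.976). The BTG/TOB family had 4 tested genes, 3 upward and 1 downward and 0 passing, with Tob2 at 239 ± 108 and 266 ± 92.2 CPM and Tob1 at 30.3 ± 12.8 and 26.2 ± 17.3 CPM.

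Of 23 tested RNA-binding adaptors that recruit CCR4-NOT, 0 passed, 17 upward and 6 downward. Ythdf2, the reader of N6-methyladenosine, had 417 ± 195 CPM among control- and 501 ± 227 CPM among SER-generated embryos, and Rc3h2 had the smallest p (log2 fold change 0.56, SE 0.32, edgeR adjusted p = 0.869). The terminal uridylation and exosome list had 19 tested genes, 16 upward and 3 downward and 0 passing, among them Exosc6 (0.28, SE 0.37) and Exosc1 (−0.44, SE 0.33). Poly(A)-binding proteins had 8 tested genes, 5 upward and 3 downward and 0 passing, with Pabpn1 at 1220 ± 549 and 1400 ± 504 CPM and Paip1 at 237 ± 196 and 186 ± 88.3 CPM. The medians of these 3 lists were 0.09, 0.12 and 0.17 on the log2 scale, beside 0.02 over all tested genes.

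Decapping and 5′ decay, the steps after the tail is removed, had 16 tested genes, 8 upward and 8 downward and 0 passing. Of them 2 had an unadjusted p under 0.05 in edgeR, against 5.73% of all tested genes. Lsm14a had the highest level per length (499 ± 157 CPM among control- and 655 ± 342 CPM among SER-generated embryos). Lsm1, which encodes the subunit that sets the cytoplasmic LSM ring of decapping apart from the nuclear one, had the smallest p of all these lists. It ran from 44.6 through 94.9 to 261 CPM among control- and from 25.3 through 58.3 to 95.3 CPM among SER-generated embryos, and the fitted log2 difference was −1.0 (SE 0.27, edgeR unadjusted p = 0.000644, adjusted p = 0.403), and the ranges overlapped.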

How the data were processed

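Single-embryo libraries were made by Smart-seq3, in which only reads from the 5′ end carry a molecular identifier. The authors used STAR for alignment, UMI-tools and Picard against duplicates, and featureCounts for counting, and mm10 is the build in the submitters' processing notes. The annotation, strand setting and tool versions are not given in the sources used here. The deposited values are whole-number counts per gene symbol, taken as those before the authors' ComBat-seq step. Internal reads carry no identifier, so the true error can exceed counting error.

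SER- and control-generated embryos were compared with edgeR 4.0.16 in R 4.3.3 (quasi-likelihood test, TMM, filterByExpr with a minimum count of 10 and total of 15, Benjamini-Hochberg over all 8571 tested genes, adjusted p under 0.1), without covariates. The script was tested on simulated data. Alternatives were DESeq2 1.42.0, limma 3.58.1 voom with sample quality weights, sva 3.50.0, other filters and size factors, library size as a covariate, a replicate block and leaving out each embryo. Permutation tests used 100000 resamples on log2(CPM + 1), and the ratios of nucleases a pseudocount of 0.5 counts. Exon lengths and positions are from GENCODE vM21 (GRCm38). The permutation test of single genes, the adjustment of the spread test over all tested genes and the omission of control replicate 4 with SER replicate 15 were added after seeing the data. Of 225 pairs of libraries of a group, 0 were identical.

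The 10 genes and the lists were chosen with earlier results of these data known. Besides the 10, the text names, of each decay list, the tested genes with the highest level per length and with the smallest p, the 5 genes most like Btg4, and up to 3 most abundant genes of the other lists.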

Additional observations from a re-analysis of the deposited data

How the results depend on the processing

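The edgeR count of genes with an adjusted p under 0.1 was 0, and it stayed 0 with a stricter filter, DESeq2 size factors, library size as a covariate, each embryo left out in turn (0 to 0), and control replicate 4 and SER replicate 15 left out together. It was 504 without a filter, 49 with DESeq2, 848 with limma voom and 61 with surrogate variables, and the cause was not tested. Whether same-numbered embryos deviated together was not tested. Over 15 pairs the correlation was −0.368 to 0.494 with a median of 0.113, and 8 were over 0.1. Of the 15 SER-generated embryos, 2 were closest to the control of their number. The labels do not say that the numbers pair the embryos, and they were not taken to do so. With the replicate block the count was 0, as with the block and library size together, and the balance of Cnot6l to Cnot6 was 0.231 and that of Cnot7 to Cnot8 −0.483. Leaving out 1 embryo each, these balances ran from −0.0394 (without SER replicate 15) to 0.270 and from −0.664 to −0.386.

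Btg4, Cnot1, Cnot6 and Cnot8 kept their direction in all 41 alternatives, most of which only leave out 1 embryo. The other 6 estimates turned sign in at least 1 alternative. Under limma voom they were −0.11 for Cnot2, −0.37 for Cnot3, −0.51 for Cnot7 and −0.14 for Pan2. With library size as a covariate they were −0.0465 for Cnot2, −0.16 for Cnot3 and −0.35 for Cnot7. With surrogate variables they were −0.20 for Cnot3 and −0.26 for Cnot7. With the replicate block Cnot7 was −0.26. With the block and library size together Cnot7 was −0.28, Cnot6l 0.58 and Zfp36l2 0.43. Without control replicate 4 and SER replicate 15 they were −0.0777 for Cnot2, −0.25 for Cnot3 and −0.0304 for Cnot7. The difference of mean log2(CPM + 1) was −0.00633 for Cnot3 and −0.26 for Cnot7. Leaving out 1 embryo each gave −0.0825 to 0.0639 for Cnot2, −0.38 to 0.20 for Cnot3 and −0.15 to 0.16 for Cnot7. In the order of levels, the number of passing pairs of neighbours stayed at 6 under both alternatives. The pairs were not all the same, as Pan2 and Zfp36l2 were no longer neighbours with the length of the longest transcript. The relations that passed numbered 15 to 19, against 17.

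Depth limits Zfp36l2 most, with 0 to 120 counts per embryo.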
